A study of Mus musculus with 36 samples.

Results

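A set of 10 genes for the synthesis of serine, one-carbon units and asparagine was followed, chosen by symbol from the 46078 genes of each library, through all 12 groups of the study. They were Phgdh, Psat1, Psph, Shmt1, Shmt2, Mthfd1l, Mthfd2, Aldh1l2, Asns and Pycr1. All 10 passed the filter on low counts in both cell types. RNA came from RM-1-BM, a mouse prostate cancer line, and from RAW264.7, a mouse macrophage line. The cancer cells had been transduced with the F133V mutant of SPOP, a substrate adaptor of a ubiquitin ligase, or with the empty vector, and they grew alone or in a transwell opposite macrophages, with olaparib (a PARP inhibitor) or the vehicle DMSO. The 8 cancer groups were F133V cells in coculture with olaparib, in coculture with DMSO, alone with olaparib and alone with DMSO, and vector cells under the same 4 conditions. The 4 macrophage groups came from the cocultures: opposite F133V cells with olaparib or DMSO, and opposite vector cells with olaparib or DMSO. Each group had 3 libraries, which makes 24 of cancer cells and 12 of macrophages. The labels used here give neither the dose and time of olaparib nor whether the transduced lines were clones, and no group holds macrophages grown alone.

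These enzymes form a connected branch of metabolism. Serine is made from a glycolytic intermediate by Phgdh, Psat1 and Psph in turn. Shmt1 in the cytosol and Shmt2 in mitochondria then split serine into glycine and a carbon unit carried by folate. In mitochondria Mthfd2 oxidises that unit, after which Mthfd1l releases it as formate for purine and thymidine synthesis, or Aldh1l2 oxidises it further to carbon dioxide. Asns makes asparagine from aspartate and glutamine, and Pycr1 carries out the last step of proline synthesis. Many of these genes are textbook targets of ATF4, a transcription factor of the amino acid and stress response that binds composite C/EBP-ATF response elements (CARE).

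Promoter sequences of a pair of members are shown because Asns and Pycr1 moved furthest apart in the same group of cells and were the members whose promoter windows held the CARE core. The windows run from 250 bases before to 50 bases after the RefSeq gene start (GRCm38.p6), 5′ to 3′ on the gene's strand, with the CARE core in capitals. The Asns window lies at chr6:7693160-7693459 and the Pycr1 window at chr11:120643699-120643998, both on the minus strand. The genes themselves span chromosome 6, 7675169 to 7693254, for Asns and chromosome 11, 120635712 to 120643769, for Pycr1 (GRCm38). Aldh1l2 lies on chromosome 10, 83487450 to 83534140, and Phgdh on chromosome 3, 98313170 to 98339990, also on the minus strand.
Asns: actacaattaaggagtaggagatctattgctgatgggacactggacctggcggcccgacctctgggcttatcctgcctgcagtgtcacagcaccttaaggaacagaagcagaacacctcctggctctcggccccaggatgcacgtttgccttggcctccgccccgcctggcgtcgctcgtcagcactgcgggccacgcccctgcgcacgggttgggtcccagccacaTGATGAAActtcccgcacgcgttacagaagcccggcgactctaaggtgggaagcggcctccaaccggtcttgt
Pycr1: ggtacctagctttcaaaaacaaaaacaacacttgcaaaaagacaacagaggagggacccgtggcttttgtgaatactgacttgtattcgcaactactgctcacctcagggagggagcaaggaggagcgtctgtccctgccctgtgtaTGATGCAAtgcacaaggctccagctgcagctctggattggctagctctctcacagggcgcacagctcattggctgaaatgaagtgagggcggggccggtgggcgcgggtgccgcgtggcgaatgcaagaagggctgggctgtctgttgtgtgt
The search used the letters TGATGNAA on both strands (TTNCATCA in reverse) and found TGATGAAA at position -23 of Asns and TGATGCAA at position -103 of Pycr1, counted from the gene start. RefSeq gave a window for 9 of the 10 members, and the other 7 held no CARE core. The core occurred in 3.97% of all 32851 windows of this length. The E-box CACGTG was found in none of the 9, against 7.15% of all windows, and so overlapped neither match. These matches are letters in a window and say nothing about binding in these cells.

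Gene counts per library ranged from 30292309 to 43062440. Nothing in the labels ties the libraries of a group to separate cultures, so a p-value covers the spread between libraries only, which may be technical. The sum of 14 macrophage markers was 12530 to 14610 CPM (counts relative to library size, TMM-scaled within a cell type) in macrophages and 13.3 to 30.4 CPM in cancer cells. Among vector cells alone with DMSO, replicates 1 and 2 held the macrophage transcript Lyz2 at 3.38 and 4.36 CPM, against 0.70 CPM in replicate 3. The sum of 14 cancer markers was 1945 to 10230 CPM in cancer cells and 2.77 to 5.41 CPM in macrophages. Genes not classed as protein-coding took 10.1% to 10.2% of gene counts in F133V cells alone with DMSO. They took 8.45% to 10.8% in F133V cocultures with DMSO, against 6.52% to 7.20% in vector cells with DMSO across both cultures. The part of these shares in the genotype contrasts was not tested.

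Levels can be compared between genes only per length, so they are given first as RPKM (per kilobase of exon). In F133V cocultures with DMSO the order was Phgdh at 256 ± 8.28 RPKM, Asns at 192 ± 5.95, Psat1 at 173 ± 4.28 and Shmt2 at 147 ± 4.98 (SD, n = 3 throughout). Mthfd2 followed at 97.2 ± 2.64 RPKM. Mthfd1l at 47.0 ± 1.22 and Aldh1l2 at 46.5 ± 0.83 RPKM did not differ beyond their spread. In vector cocultures with DMSO, Phgdh led at 200.2 ± 2.87 RPKM, and Shmt2 at 144 ± 2.39 and Psat1 at 142 ± 1.10 RPKM did not differ beyond their spread. Asns stood below them at 123 ± 0.78 RPKM. At the low end were Shmt1 at 3.94 ± 0.19 and Pycr1 at 1.91 ± 0.18 RPKM in F133V cocultures, against 3.91 ± 0.18 and 7.96 ± 0.16 RPKM in vector cocultures.

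Across the 8 cancer groups Pycr1 had the widest range of mean CPM (4.29-fold), followed by Aldh1l2 (2.17-fold) and Asns (2.09-fold). The other members ranged from 1.5-fold for Psat1 to 1.86-fold for Psph. Phgdh, Psat1, Mthfd2 and Asns had their highest mean in F133V cocultures with DMSO. Psph, Shmt2, Mthfd1l and Aldh1l2 had theirs in F133V cocultures with olaparib. Pycr1 and Aldh1l2 were at their lowest in F133V cocultures with DMSO.

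**Figure D1:**
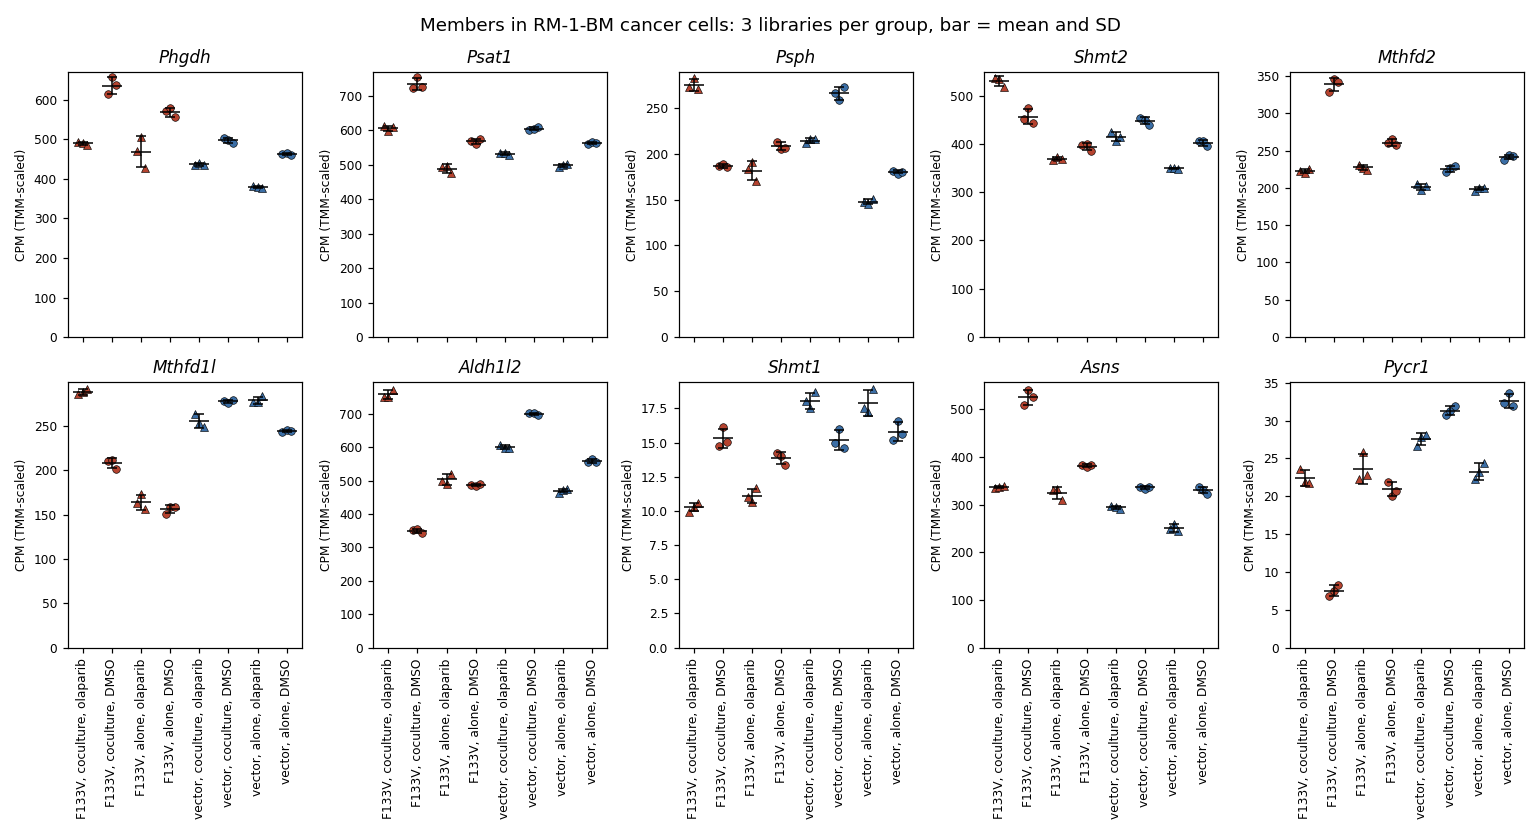
CPM of each gene (y axis, TMM-scaled, from 0) in the 3 libraries of each of the 8 cancer groups (x axis), with bars for the mean and SD; red points are F133V cells, blue points vector cells, triangles olaparib and circles DMSO. In F133V cocultures with DMSO, Asns stands at 508 to 541 CPM and Pycr1 at 6.86 to 8.30 CPM, each apart from the other 7 groups.

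The contrast of F133V with vector cells asks how the mutant line differed, and the mutation cannot be told apart from other differences between the lines. The largest differences, those of Pycr1 and Aldh1l2, appeared in coculture with DMSO. There Asns, Mthfd2, Phgdh and Psat1 were higher in F133V cells, and Pycr1, Aldh1l2, Psph and Mthfd1l were lower. That is 4 higher and 4 lower of 10, where 37.4% of all 15962 genes tested were higher and 42.0% lower at an adjusted p under 0.05 (edgeR's quasi-likelihood test, Benjamini-Hochberg), so the share called is near the background of 79.5%. The members' median log2 fold change was 0.02 and that of all genes -0.06. In bulk RNA, fewer cells expressing a gene and less RNA per cell cannot be told apart.

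Asns read 508, 541 and 526 CPM in F133V cocultures with DMSO, against 337, 333 and 337 CPM in vector cocultures. Every F133V library lay above every vector library (log2 fold change 0.64 ± 0.03 SE, adjusted p = 6.1e-24). Mthfd2, the mitochondrial dehydrogenase, read 328, 346 and 342 CPM in F133V cells, against 221, 226 and 229 CPM in vector cells. These groups did not overlap either (0.59 ± 0.02, adjusted p = 7.2e-24). Phgdh, the first enzyme of serine synthesis, read 616, 657 and 636 CPM in F133V cells, against 504, 500 and 490 CPM in vector cells. It was higher in all 3 F133V libraries (0.35 ± 0.03, adjusted p = 4.7e-13). Psat1, the aminotransferase of the second step, read 723, 755 and 725 CPM in F133V cells and 600, 603 and 609 CPM in vector cells (0.28 ± 0.02), but its call was lost when libraries were scaled by size alone (0.03, adjusted p = 0.20).

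Pycr1 was the member with the largest difference. It read 6.86, 7.43 and 8.30 CPM in F133V cocultures with DMSO, against 30.8, 31.2 and 32.0 CPM in vector cocultures. The groups were far apart (-2.06 ± 0.06, adjusted p = 2.1e-27). Aldh1l2 read 351, 354 and 342 CPM in F133V cells, against 701, 702 and 696 CPM in vector cells, again with no overlap (-1.0 ± 0.02, adjusted p = 1.8e-32). Psph, the phosphatase that completes serine synthesis, read 187, 189 and 185 CPM in F133V cells, against 266, 259 and 273 CPM in vector cells (-0.51 ± 0.03, adjusted p = 4.9e-19). It thus went the other way from Phgdh and Psat1. Mthfd1l was lower in all 3 F133V libraries (-0.41 ± 0.03).

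Neither hydroxymethyltransferase passed the test in coculture with DMSO. Shmt2 ranged from 443 to 473 CPM in F133V cells and from 439 to 454 CPM in vector cells (0.03 ± 0.02, adjusted p = 0.28), and Shmt1 from 14.7 to 16.1 and from 14.6 to 16.0 CPM (0.01 ± 0.06, adjusted p = 0.88). The groups overlapped for both genes. Scaled by library size alone, the median of all genes in this contrast moved to -0.31 and the share of calls that were higher from 47.1% to 34.7%, and Shmt1 and Shmt2 were then called lower (-0.24 and -0.23). Asns stayed higher at 0.39 on that scale. Shmt2 was instead called higher with RLE scaling (0.066, adjusted p = 0.0094), with DESeq2 (0.066, adjusted p = 0.0058) and with length and GC trends removed (0.074, adjusted p = 0.0012), and Shmt1 with those trends removed (0.16, adjusted p = 0.014). The exons of Psph, Shmt1, Shmt2 and Aldh1l2 share 10.4%, 4.74%, 1.03% and 14.1% of their bases with a gene on the other strand, and the strand setting of the counting is not given, so their counts are uncertain to that extent. Phgdh has an annotated pseudogene, Phgdh-ps1, and reads shared with it would also be uncertain.

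Grown alone with DMSO, F133V cells had more Asns, Phgdh, Psph and Mthfd2 and less Mthfd1l, Pycr1, Aldh1l2 and Shmt1 than vector cells. These 4 higher and 4 lower stood beside 33.7% and 34.0% of all genes (67.7% called). Mthfd1l, which releases formate, read 151, 158 and 159 CPM in F133V cells, against 244, 245 and 244 CPM in vector cells. No values overlapped (-0.65 ± 0.03, adjusted p = 3.3e-22). Asns differed by 0.21 ± 0.03 and Phgdh by 0.30 ± 0.03. Psph differed by 0.21 ± 0.03, whereas it was lower in F133V cocultures with DMSO. Pycr1 differed by -0.64 ± 0.05 and Aldh1l2 by -0.20 ± 0.02. Mthfd2 differed by 0.11 ± 0.02, or 0.02 (adjusted p = 0.48) scaled by library size alone. Shmt1 differed by -0.19 ± 0.06. Without vector replicates 1 and 2, the libraries with macrophage transcripts, 1 library was left in that group. The Shmt1 difference was then -0.18 and not called. Psat1 and Shmt2 overlapped between the lines and were not called. Scaled by library size alone both were called lower (-0.083 and -0.12), and with length and GC trends removed Psat1 was called higher (0.084, adjusted p = 0.00018).

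With olaparib, the F133V cells alone had 6 members higher and 2 lower (34.3% and 33.2% of all genes; 67.4% called). In coculture 8 were higher and 2 lower, against 28.8% and 31.2% of all genes (60.0% called), with a median of 0.18 for the members and 0.00 for all genes. Shmt1, the cytosolic enzyme, was lower in both settings: it read 9.96, 10.3 and 10.6 CPM in F133V cocultures, against 18.0, 17.5 and 18.7 CPM in vector cocultures (-0.81 ± 0.06, adjusted p = 2.7e-15). Alone with olaparib it differed by -0.69 ± 0.06. Mthfd1l differed by -0.77 ± 0.03 alone and by 0.17 ± 0.03 in coculture, where it averaged 289 CPM in F133V cells and 256 CPM in vector cells. Pycr1 overlapped between the lines alone (0.02 ± 0.05, adjusted p = 0.73) and was lower in F133V cocultures (-0.30 ± 0.05).

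**Figure D2:**
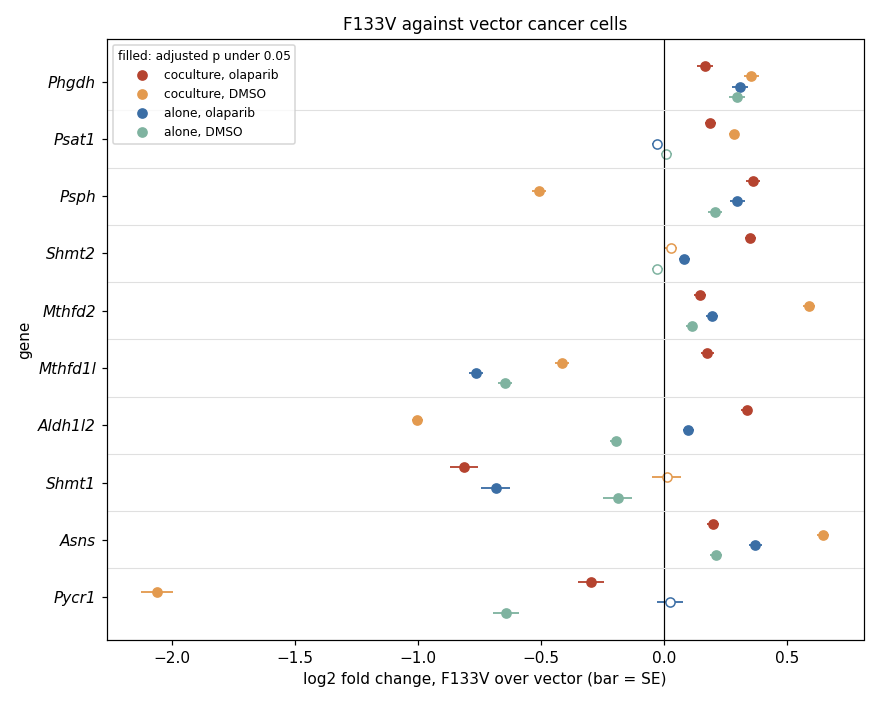
Log2 fold change of each gene (rows), F133V over vector cells, under the 4 conditions, with bars for the SE; filled points passed an adjusted p of 0.05. Asns lies right of 0 in all 4 conditions (0.20 to 0.64), and Pycr1 and Aldh1l2 lie furthest left in coculture with DMSO (-2.06 and -1.0).

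The contrast of coculture with cells alone asks how these genes differed between the cultures. The presence of macrophages cannot be told apart from other differences between the cultures. In vector cells with DMSO the changes were small: 6 members rose and 1 fell, beside 23.4% and 18.6% of all genes (42.0% called; 55.7% of calls were rises, or 42.2% scaled by library size alone). Psph led, at 266, 259 and 273 CPM in coculture, against 182, 178 and 180 CPM alone. The values did not overlap (0.56 ± 0.03, adjusted p = 2.8e-19). Aldh1l2 rose by 0.33 ± 0.02, Mthfd1l by 0.18 ± 0.03, Shmt2 by 0.15 ± 0.02 and Psat1 by 0.10 ± 0.02. Phgdh rose by 0.10 ± 0.03, which was not called scaled by library size alone (0.05, adjusted p = 0.17). The rise was not called either without vector replicates 1 and 2 (0.11), which leaves 1 library of vector cells alone. Asns at 0.03 ± 0.03 and Pycr1 at -0.06 ± 0.05 were not called.

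F133V cells with DMSO changed in all 10 members, 7 upward and 3 downward, where 35.6% of all genes rose and 34.8% fell (70.3% called; 50.6% of calls were rises, or 34.6% scaled by library size alone, which moved the median of all genes from 0.01 to -0.20). Asns read 508, 541 and 526 CPM in coculture, against 384, 378 and 383 CPM alone (0.46 ± 0.03, adjusted p = 6.2e-19). Mthfd1l, Mthfd2 and Psat1 rose by 0.42 ± 0.03, 0.38 ± 0.02 and 0.37 ± 0.02. Pycr1 fell to 6.86, 7.43 and 8.30 CPM in coculture, against 21.9, 20.1 and 20.7 CPM alone (-1.48 ± 0.07, adjusted p = 2.5e-21). Aldh1l2 fell to 349 CPM on average in coculture, against 487 CPM alone (-0.48 ± 0.02), and Psph changed by -0.16 ± 0.03. No library of one culture overlapped the other for these genes. The rises of Shmt2, Phgdh and Shmt1 (0.21, 0.16 and 0.14) depended on scaling: by library size alone they were 0.00, -0.047 and -0.065, and none was called. Shmt1 also lost its call without F133V coculture replicate 2 (0.10, adjusted p = 0.18) and without replicate 2 or 3 of F133V cells alone (0.15 and 0.12, adjusted p = 0.051 and 0.12).

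The lines differed in this response. The interaction, the log2 change in F133V cells minus that in vector cells, was called for 8 members with DMSO, 5 positive and 3 negative, beside 30.2% and 32.5% of all genes (62.7% called; 48.1% of calls were positive, or 35.7% scaled by library size alone). It was -1.42 ± 0.08 for Pycr1, -0.81 ± 0.03 for Aldh1l2 and -0.72 ± 0.04 for Psph. It was 0.48 ± 0.03 for Mthfd2, 0.43 ± 0.04 for Asns and 0.27 ± 0.03 for Psat1. Psph and Aldh1l2 fell in F133V cells and rose in vector cells. For Mthfd1l the interaction was 0.23 ± 0.04, or 0.07 (adjusted p = 0.10) scaled by library size alone. For Shmt1 it was 0.20 ± 0.08, or 0.038 (adjusted p = 0.71) scaled by library size alone, and it was not called without any one of 5 libraries (0.16 to 0.18, adjusted p = 0.068 to 0.11): vector replicate 2 alone, F133V replicate 3 alone, vector coculture replicates 1 and 3 and F133V coculture replicate 2.

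With olaparib, F133V cells in coculture had 5 members higher than alone and 0 lower (26.7% and 26.5% of all genes; 53.2% called; 50.2% of calls were rises, or 37.4% scaled by library size alone). Mthfd1l read 286, 288 and 292 CPM in coculture, against 163, 173 and 156 CPM alone (0.81 ± 0.03, adjusted p = 4.3e-25). Psph, Aldh1l2, Shmt2 and Psat1 rose by 0.60, 0.59, 0.52 and 0.31. The other 5 were not called, but Shmt1, Pycr1 and Mthfd2 were called lower when scaled by library size alone (-0.19, -0.15 and -0.11), and Mthfd2 also with length and GC trends removed (-0.062). Without replicate 2 of F133V cells alone with olaparib, Phgdh was called higher (0.12, adjusted p = 8.3e-05, against 0.07), as was Asns (0.074, adjusted p = 0.017). Asns was also called without replicate 1 of that group (0.069, adjusted p = 0.043), and Phgdh without replicate 3 of F133V cocultures with olaparib (0.085, adjusted p = 0.046). Vector cells with olaparib had 7 members higher and 1 lower (25.5% and 18.5% of all genes; 44.1% called), led by Psph (0.54 ± 0.03) and Aldh1l2 (0.35 ± 0.02). Mthfd1l was the member that fell (-0.13 ± 0.03), and its interaction of genotype and coculture was 0.94 ± 0.04 (adjusted p = 3.3e-22; the 7 called members were 4 positive and 3 negative, beside 21.8% and 25.1% of all genes, 46.9% in all).

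**Figure D3:**
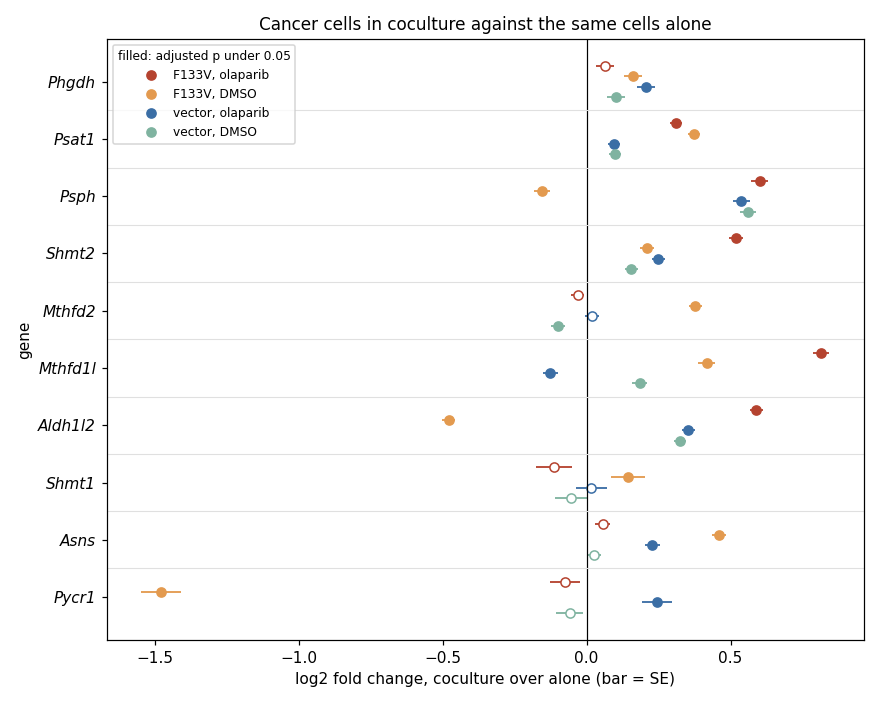
Log2 fold change of each gene (rows), coculture over cells alone, for both lines and treatments, with bars for the SE; filled points passed an adjusted p of 0.05. For F133V cells with DMSO, Pycr1 (-1.48), Aldh1l2 (-0.48) and Psph (-0.16) lie left of 0, and Asns lies at 0.46.

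Olaparib against DMSO was the third contrast. In vector cells most members fell by a small amount: 8 of 10 alone, with 2 higher, and 9 of 10 in coculture, with 1 higher. Far fewer of all genes were called, 15.1% lower and 15.3% higher alone (30.4% called) and 10.9% lower and 12.6% higher in coculture (23.6% called). The members' medians were -0.26 alone and -0.18 in coculture, and those of all genes were 0.00 in each. Asns read 248, 260 and 245 CPM with olaparib, against 336, 331 and 323 CPM with DMSO in vector cells alone (-0.39 ± 0.03, adjusted p = 2.5e-15). The coculture values were 297, 294 and 291 CPM with olaparib, against 337, 333 and 337 CPM with DMSO (-0.19 ± 0.03). The groups did not overlap in either culture. Phgdh differed by -0.29 ± 0.03 and -0.19 ± 0.03, Psph by -0.29 ± 0.03 and -0.31 ± 0.03, and Aldh1l2 by -0.25 ± 0.02 and -0.22 ± 0.02, alone and in coculture. Shmt1 was higher in both, at 0.18 ± 0.05 and 0.25 ± 0.06. Its call alone was lost without DMSO replicate 1 (0.15, adjusted p = 0.070) and without olaparib replicate 3 (0.14, adjusted p = 0.096). Without the DMSO replicates 1 and 2 together, which leaves 1 DMSO library, the Shmt1 change was 0.19 and not called. Without those DMSO replicates 2952 genes were called in vector cells alone, against 4857 with them.

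F133V cells alone had 7 members lower with olaparib and 2 higher (17.9% and 18.2% of all genes; 36.2% called; 50.5% of calls were higher, or 74.6% scaled by library size alone). Phgdh read 471, 507 and 428 CPM with olaparib, against 572, 579 and 556 CPM with DMSO (-0.28 ± 0.03, adjusted p = 3.1e-09). Asns differed by -0.23 ± 0.03 and Shmt1 by -0.32 ± 0.06. Shmt2 differed by -0.09 ± 0.02, or -0.02 (adjusted p = 0.53) scaled by library size alone. Both members called higher rested on single libraries. Pycr1 (0.18 ± 0.06) lost its call without olaparib replicate 2 (0.11, adjusted p = 0.14) or DMSO replicate 2 (0.15, adjusted p = 0.069). Mthfd1l (0.07 ± 0.03) overlapped between the groups and lost its call without olaparib replicate 2 (0.04, adjusted p = 0.36), olaparib replicate 1 (0.08, adjusted p = 0.061) or DMSO replicate 1 (0.05, adjusted p = 0.26).

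F133V cells in coculture split in 2 directions with olaparib: Pycr1, Aldh1l2, Psph, Mthfd1l and Shmt2 rose, and Asns, Mthfd2, Shmt1, Phgdh and Psat1 fell. All 10 were called, 5 each way, beside 39.3% higher and 37.0% lower of all genes (76.3% called; 51.5% of calls were higher, or 63.5% scaled by library size alone, which moved the median of all genes from 0.02 to 0.23). Pycr1 read 23.6, 21.9 and 21.8 CPM with olaparib, against 6.86, 7.43 and 8.30 CPM with DMSO (1.58 ± 0.07, adjusted p = 6.6e-23). Aldh1l2 read 750, 751 and 772 CPM with olaparib, against 351, 354 and 342 CPM with DMSO (1.12 ± 0.02, adjusted p = 1.1e-33). Psph changed by 0.56 ± 0.03, Mthfd1l by 0.47 ± 0.03 and Shmt2 by 0.21 ± 0.02. Asns read 334, 338 and 340 CPM with olaparib, against 508, 541 and 526 CPM with DMSO (-0.64 ± 0.03, adjusted p = 1.0e-23). Mthfd2 changed by -0.60 ± 0.02, Shmt1 by -0.58 ± 0.06, Phgdh by -0.38 ± 0.03 and Psat1 by -0.28 ± 0.02. For every member the olaparib and DMSO libraries stood apart, and the share of all genes that did so is not given here. This contrast shares its DMSO libraries with the F133V contrasts in coculture, so the contrasts are not independent.

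The response to olaparib in coculture differed between the lines for all 10 members, 5 positive and 5 negative, beside 35.4% and 32.0% of all genes (67.4% called; 52.6% of calls were positive, or 65.9% scaled by library size alone). The interaction was 1.76 ± 0.08 for Pycr1, 1.34 ± 0.03 for Aldh1l2, 0.87 ± 0.04 for Psph, 0.59 ± 0.04 for Mthfd1l and 0.32 ± 0.03 for Shmt2. It was -0.82 ± 0.08 for Shmt1, -0.45 ± 0.04 for Asns and -0.44 ± 0.03 for Mthfd2. For Phgdh (-0.19 ± 0.04) and Psat1 (-0.09 ± 0.03) the sign turned when scaled by library size alone (0.016 and 0.11), and Psat1 lost its call without F133V coculture replicate 2 with DMSO (-0.06, adjusted p = 0.079). Alone, 6 members had a called interaction (24.2% of all genes), with Pycr1 at 0.66 ± 0.07 and Shmt1 at -0.50 ± 0.08. Within F133V cells the response also differed between coculture and cells alone for 8 members (64.5% of all genes), among them Pycr1 at 1.40 ± 0.09, Aldh1l2 at 1.07 ± 0.03 and Psph at 0.76 ± 0.04. Within vector cells 4 members had such a difference (13.7% of all genes), or 2 without vector replicates 1 and 2, and Asns was one of the 4 (0.20 ± 0.04).

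**Figure D4:**
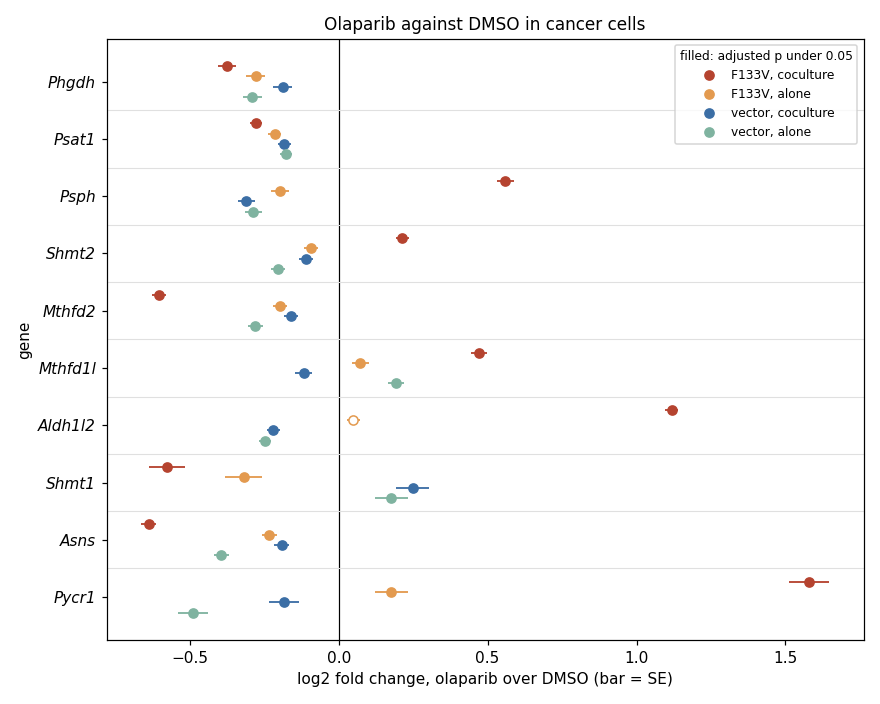
Log2 fold change of each gene (rows), olaparib over DMSO, for both lines in both cultures, with bars for the SE; filled points passed an adjusted p of 0.05. Asns lies left of 0 in all 4 settings (-0.64 to -0.19), while Pycr1 (1.58) and Aldh1l2 (1.12) lie furthest right in F133V cocultures.

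Macrophages opposite F133V cells carried more message for 9 of the 10 enzymes than macrophages opposite vector cells, both with DMSO. Mthfd1l was the exception and was lower. Of all 14262 genes tested, 25.5% were higher and 28.1% lower (53.6% called; 47.5% of calls were higher, or 59.3% scaled by library size alone). The members' median log2 fold change was 0.78, against -0.01 for all genes. Without macrophages grown alone, each value is a difference between cocultures.

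Among the serine enzymes, Psph read 43.8, 45.6 and 42.5 CPM opposite F133V cells, against 21.1, 22.3 and 22.0 CPM opposite vector cells (1.02 ± 0.04, adjusted p = 1.9e-26). Phgdh read 389, 387 and 377 CPM opposite F133V cells, against 210, 218 and 216 CPM opposite vector cells (0.84 ± 0.02, adjusted p = 8.8e-38). Psat1 was higher by 0.64 ± 0.02. No library of one partner reached the range of the other for these genes. Shmt2, which feeds carbon units into mitochondrial folate, read 353, 358 and 343 CPM opposite F133V cells, against 184, 185 and 180 CPM opposite vector cells (0.94 ± 0.02, adjusted p = 4.0e-40). Aldh1l2, Asns, Shmt1 and Mthfd2 were higher by 0.85 ± 0.02, 0.73 ± 0.02, 0.68 ± 0.08 and 0.41 ± 0.02. Pycr1 read 12.4, 11.8 and 11.8 CPM opposite F133V cells, against 5.74, 6.02 and 6.58 CPM opposite vector cells (0.97 ± 0.09, adjusted p = 2.2e-13). Mthfd1l read 111, 113 and 113 CPM opposite F133V cells, against 164, 161 and 165 CPM opposite vector cells (-0.54 ± 0.02, adjusted p = 7.7e-28).

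The level of cancer markers was low in both groups of macrophages. The 14 cancer markers summed to 3.33 to 3.51 CPM opposite F133V cells, with 7 at 0, and to 2.77 to 3.54 CPM opposite vector cells, with 6 at 0. Epcam, an epithelial adhesion molecule, was at 0 in each. The 14 macrophage markers summed to 12680 to 12940 CPM opposite F133V cells and to 14380 to 14610 CPM opposite vector cells, and the part of that difference was not tested.

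With olaparib the macrophages opposite F133V cells fell in 9 members and rose in 1, Mthfd1l, relative to DMSO (29.0% and 28.5% of all genes; 57.5% called; 49.6% of calls were higher, or 36.7% scaled by library size alone). The members' median was -0.63 and that of all genes 0.00. Shmt1 read 6.23, 5.61 and 5.60 CPM with olaparib, against 12.5, 14.3 and 14.7 CPM with DMSO (-1.25 ± 0.08, adjusted p = 1.1e-18). Psph read 21.1, 20.3 and 21.4 CPM with olaparib, against 43.8, 45.6 and 42.5 CPM with DMSO (-1.07 ± 0.04, adjusted p = 1.7e-27). Both genes were separated fully between the treatments. Shmt2 changed by -0.99 ± 0.02, Psat1 by -0.83 ± 0.02, Pycr1 by -0.65 ± 0.09, Phgdh by -0.61 ± 0.02 and Asns by -0.48 ± 0.02. Mthfd2 at -0.24 ± 0.02 and Aldh1l2 at -0.14 ± 0.02 changed least. Mthfd1l read 163, 160 and 165 CPM with olaparib, against 111, 113 and 113 CPM with DMSO (0.53 ± 0.02, adjusted p = 1.1e-27).

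Macrophages opposite vector cells changed with olaparib in 3 members (28.4% of all genes called, 14.0% higher and 14.5% lower). Of the calls, 49.1% were higher. Scaled by library size alone, 14.7% were higher and 6 members were called, while the count of all genes called stayed within 1.5 times. With TMM scaling, Aldh1l2 rose by 0.29 ± 0.02 and Mthfd1l by 0.23 ± 0.02. Shmt1 changed by -0.30 ± 0.09, a call lost without DMSO replicate 2 (-0.22, adjusted p = 0.10) or olaparib replicate 1 (-0.23, adjusted p = 0.080). Phgdh, Psat1, Psph, Mthfd2, Asns and Pycr1 overlapped between the treatments. In these macrophages, genes not classed as protein-coding took 7.47% to 7.82% of counts with olaparib and 4.49% to 4.94% with DMSO. The part of that share was not tested. The response to olaparib differed between the partners for all 10 members, 9 negative and 1 positive, beside 23.7% and 25.7% of all genes (49.3% called). The difference was -1.07 ± 0.06 for Psph, -1.01 ± 0.03 for Shmt2, -0.96 ± 0.12 for Shmt1 and -0.87 ± 0.03 for Psat1.

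With olaparib in both cultures, macrophages opposite F133V cells had 5 members higher and 4 lower than those opposite vector cells (17.6% each way of all genes; 35.2% called; 49.9% of calls were higher, or 75.6% scaled by library size alone). Aldh1l2 was higher by 0.43 ± 0.02, Asns by 0.29 ± 0.02 and Phgdh by 0.21 ± 0.02, while Mthfd1l differed by -0.24 ± 0.02 and Psat1 by -0.23 ± 0.02. Pycr1 (0.33 ± 0.10) overlapped between the partners and lost its call without F133V-partner replicate 3 (0.16, adjusted p = 0.24). Shmt2 (-0.07 ± 0.02) lost its call without the same library (-0.06, adjusted p = 0.054) and scaled by library size alone (-0.01, adjusted p = 0.79). Shmt1 (-0.28 ± 0.09) lost its call without that library (-0.25, adjusted p = 0.070), F133V-partner replicate 2 (-0.26, adjusted p = 0.057) or vector-partner replicate 2 (-0.22, adjusted p = 0.10), and scaled by library size alone (-0.22, adjusted p = 0.059).

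**Figure D5:**
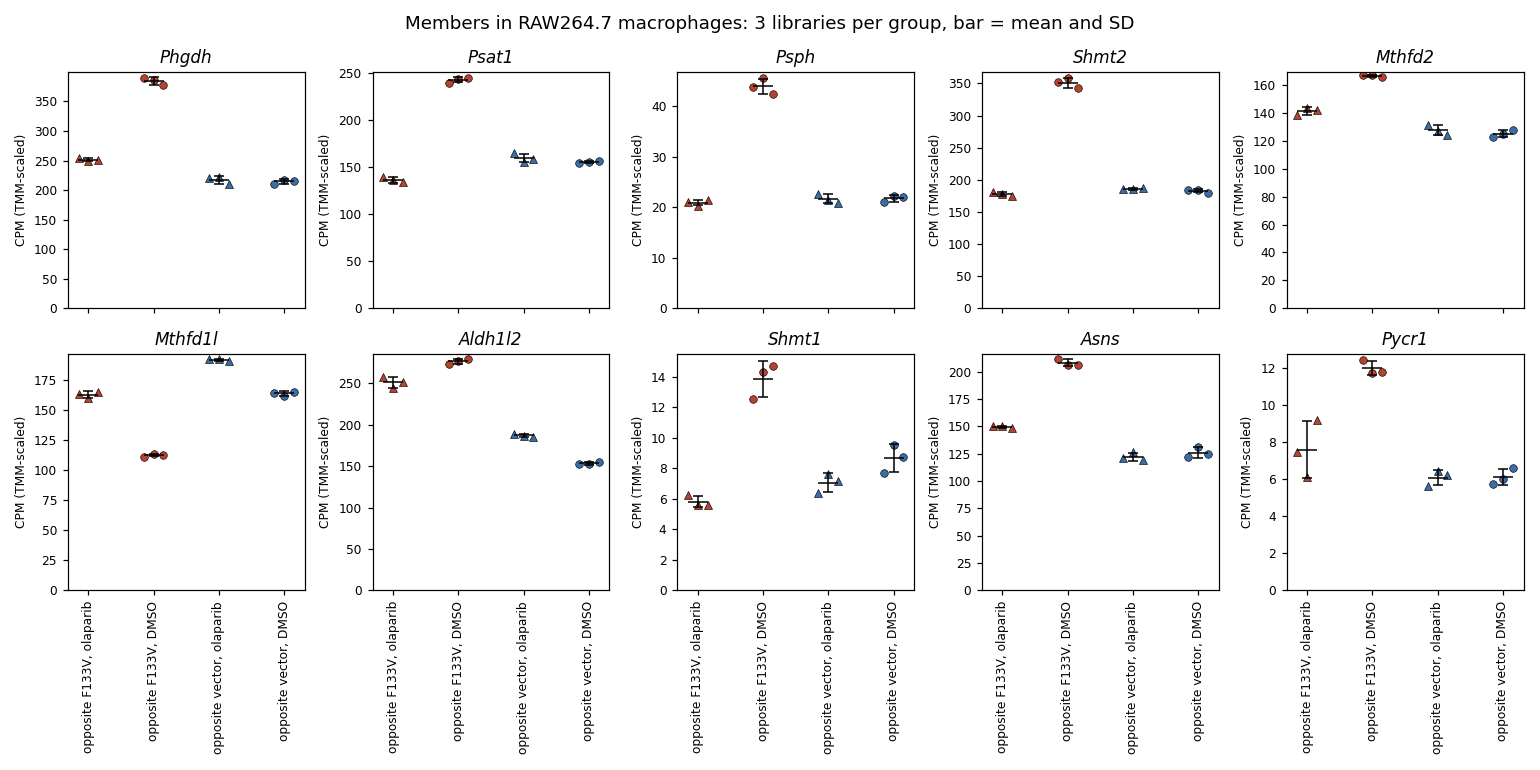
CPM of each gene (y axis, TMM-scaled, from 0) in the 3 libraries of each of the 4 macrophage groups (x axis), with bars for the mean and SD; red points are macrophages opposite F133V cells, blue points those opposite vector cells, triangles olaparib and circles DMSO. Shmt2 stands at 343 to 358 CPM opposite F133V cells with DMSO, above the 174 to 188 CPM of the other 3 groups.

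Macrophages were compared with the cancer cells opposite them in vector cocultures with DMSO, fitted together for this contrast. There 10 of 10 members were lower in macrophages, beside 42.4% of all 17295 genes lower (82.2% called). The median was -1.28 for the members and -0.05 for all genes, or -0.14 for all genes scaled by library size alone. Psph differed most (-3.53 ± 0.04), then Pycr1 (-2.28 ± 0.08) and Aldh1l2 (-2.12 ± 0.02), and Mthfd1l least (-0.69 ± 0.03). Per length, Phgdh led in macrophages too, at 86.3 ± 1.55 RPKM opposite vector cells, followed by Shmt2 at 58.8 ± 0.84 and Asns at 46.0 ± 1.76 RPKM. Mthfd1l at 36.9 ± 0.45 and Psat1 at 36.6 ± 0.32 RPKM did not differ beyond their spread. Pycr1 was lowest at 1.55 ± 0.11 RPKM.

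The regulators of the amino acid and stress response were read beside the members. Atf4 averaged 902 ± 12.1 CPM in F133V cocultures with DMSO, against 512 ± 4.92 CPM in vector cocultures (0.82 ± 0.02, adjusted p = 1.3e-30). Its target Trib3 averaged 458 ± 16.9 CPM against 254 ± 2.28 CPM (0.86 ± 0.03). Ddit3, which encodes the stress factor CHOP, averaged 346 ± 2.05 CPM in F133V cocultures, against 442 ± 1.37 CPM in vector cocultures (-0.35 ± 0.02). Atf4 and Trib3 were thus higher and Ddit3 lower in the group where Asns was highest. Among the 8 cancer groups, Pycr1 and Aldh1l2 were at their lowest in that same group. Of 22 such regulators, 16 were higher and 6 lower in this contrast (median 0.50), where 37.4% of all genes were higher and 42.0% lower (median -0.06). In F133V against vector cells alone with DMSO, 17 were higher and 5 lower, beside 33.7% and 34.0% of all genes. Alone with olaparib the counts were 17 and 4 (34.3% and 33.2%), and in coculture with olaparib 15 and 5 (28.8% and 31.2%). With olaparib in F133V cocultures, Atf4 changed by -0.29 ± 0.02, Trib3 by -0.49 ± 0.03 and Ddit3 by 0.92 ± 0.02, with 6 of 22 higher and 16 lower beside 39.3% and 37.0% of all genes. In macrophages with DMSO, Atf4 averaged 465 ± 5.12 CPM opposite F133V cells, against 333 ± 2.14 CPM opposite vector cells (0.48 ± 0.02), Ddit3 was higher by 0.89 ± 0.03 and Trib3 by 0.70 ± 0.02. With olaparib in those opposite F133V cells, Atf4 changed by -0.10 ± 0.02 and Ddit3 by 0.08 ± 0.02, and Trib3 was not called (-0.04 ± 0.02, adjusted p = 0.12).

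Neighbouring pathways were counted from lists drawn up for this purpose. In F133V against vector cocultures with DMSO, 16 of 19 other folate and glycine genes were lower and 3 higher (median -0.59), where 42.0% of all genes were lower and 37.4% higher. Among them were Slc46a1, a folate transporter (-2.19), and Gcat, an enzyme of threonine breakdown (-1.22). Of 15 genes of proline, aspartate and glutamate metabolism, 11 were lower and 4 higher beside those same shares, with Aldh18a1, which precedes Pycr1 in proline synthesis, at -0.35. In macrophages with DMSO, opposite F133V against opposite vector cells, 11 of 20 folate and glycine genes were higher and 1 lower (median 0.20; 25.5% of all genes higher and 28.1% lower), with Slc19a1, the reduced folate carrier, at 0.51. Of 14 proline, aspartate and glutamate genes, 11 were higher and 1 lower (median 0.45) beside those same shares, led by Aldh18a1 at 0.86. With olaparib in macrophages opposite F133V cells, 16 of 20 and 12 of 14 genes of these lists were lower and 1 of each higher, beside 29.0% of all genes lower and 28.5% higher.

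The genes most like Asns were ranked by the root mean square difference of their centred log2 CPM over the 8 cancer group means. Among 15961 other genes, the 5 non-members closest to Asns were Spata5 at 0.058, Rpusd4 at 0.064, Tbpl1 at 0.064, Arhgef2 at 0.071 and Ddx10 at 0.072. Among the members, Mthfd2 (0.088) ranked 13 and Phgdh (0.096) ranked 33. Psat1 stood at 0.16 and Pycr1, the furthest member, at 0.86. In order of Asns level, F133V cocultures with DMSO came highest and F133V cells alone with DMSO next. F133V cocultures with olaparib, F133V cells alone with olaparib and both vector groups with DMSO followed, with overlapping ranges of mean ± SD. The libraries of the F133V pair with olaparib did not overlap, at 334.4 to 339.8 CPM in coculture and 309.5 to 333.5 CPM alone. Vector cocultures with olaparib came next, and vector cells alone with olaparib came last.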

How the data were processed

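The authors deposited raw read counts per gene for 36 libraries, 46078 genes and 5 HTSeq summary lines each, per the files. The submitters' processing notes list STAR, TopHat, HTSeq, DESeq2 and genome build GRCm38. Their versions and roles, and whether counting used strand, are not stated there. Summary lines (17.1% to 21.5% of reads in no gene) were left out of library sizes. Groups came from the labels. The genotype entry of macrophages, which differs between the groups opposite F133V cells, was not used.

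Counts were fitted per cell type in edgeR 4.0.16 (R 4.3.3) over all groups of the cell type: TMM factors, the quasi-likelihood test, and filterByExpr (minimum count 10). This left 15962 genes and 16 residual degrees of freedom in cancer cells, and 14262 genes and 8 in macrophages. A fit of all 36 libraries (17295 genes) served the contrast of macrophages with cancer cells. Calls used a Benjamini-Hochberg adjusted p under 0.05 over all genes, and the SE is the log2 fold change divided by the root of F. RPKM used GENCODE M21 exon lengths. The procedure was tested on simulated data. Alternatives were RLE scaling, library size alone, DESeq2 1.42.0, no filter, only the groups compared, a replicate block, each library left out, removal of the vector libraries with macrophage transcripts, and removal of length and GC trends.

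The members and lists were chosen with earlier results of these data known. Text names all 10 members, Atf4, Ddit3 and Trib3, up to 3 called genes of each other list per contrast, and the 5 genes closest to Asns. Members with overlapping exons are named once, with the F133V contrast in coculture with DMSO, and that limit holds for their values in every contrast. A promoter for Aldh1l2 was not used here. Some genes of the marker and pathway lists are not reported here by name.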

Additional observations from a re-analysis of the deposited data

Results flagged for a closer look

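Several members moved in opposite directions in 2 settings, were called in each, and had a called difference between them. In coculture against cells alone with DMSO, Psph changed by -0.16 in F133V and 0.56 in vector cells (difference -0.72), Aldh1l2 by -0.48 and 0.33 (difference -0.81) and Mthfd2 by 0.38 and -0.10 (difference 0.48). With olaparib, Mthfd1l changed by 0.81 in F133V and -0.13 in vector cells (difference 0.94).

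In olaparib against DMSO in coculture, Pycr1 changed by 1.58 in F133V and -0.18 in vector cells (difference 1.76), Aldh1l2 by 1.12 and -0.22 (difference 1.34) and Psph by 0.56 and -0.31 (difference 0.87). Mthfd1l changed by 0.47 in F133V and -0.12 in vector cells (difference 0.59), Shmt2 by 0.21 and -0.11 (difference 0.32) and Shmt1 by -0.58 and 0.25 (difference -0.82). In cells alone, Pycr1 changed by 0.18 in F133V and -0.49 in vector cells (difference 0.66) and Shmt1 by -0.32 and 0.18 (difference -0.50); the F133V change of Pycr1 and the vector change of Shmt1 each lost their call without 1 library.

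Within F133V cells, Psph changed with olaparib by 0.56 in coculture and -0.20 alone (difference 0.76), and Shmt2 by 0.21 and -0.09 (difference 0.31). Within vector cells, Mthfd1l changed by -0.12 in coculture and 0.19 alone (difference -0.31). In macrophages, Aldh1l2 changed with olaparib by -0.14 opposite F133V cells and 0.29 opposite vector cells (difference -0.43). These contrasts share DMSO libraries with others in the text.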

How the results depend on the processing

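The count of members called per contrast stayed within 1.5 times in all 186 results with 1 library left out. It did so in 171 of 174 results under the other alternatives. A single fit could give results for several contrasts, so these results are not independent. Of the members' log2 fold changes, 1812 of 1860 stayed on their side of the threshold with a library left out, where no called value turned sign, and 1660 of 1740 did under the other alternatives. Uncalled values near 0 could change sign. Under the other alternatives 12 values turned sign with a call on either side. All 12 came from scaling by library size alone: Psat1 (-0.083) for F133V against vector alone with DMSO; Shmt1 (-0.24) and Shmt2 (-0.23) for the same in coculture; Shmt1 (-0.065) and Phgdh (-0.047) for coculture against F133V cells alone with DMSO; Shmt2 (-0.11) and Phgdh (-0.10) for the interaction of genotype and coculture with DMSO; Psat1 (0.11) and Phgdh (0.016) for that of genotype and olaparib in coculture; Psat1 (0.071) for that of coculture and olaparib in F133V cells; Shmt2 (-0.056) and Phgdh (-0.059) for olaparib in macrophages opposite vector cells. That scaling gave 8 members called in place of 5 for coculture against F133V cells alone with olaparib, and 6 in place of 3 for olaparib in macrophages opposite vector cells. In both contrasts the count of all genes called stayed within 1.5 times that with TMM scaling (53.2% and 28.4% of genes). The cause of these changes in the members was not tested. Without vector replicates 1 and 2 alone with DMSO, which leaves 1 library in that group, assumed to vary like the others, 2952 genes in place of 4857 were called for olaparib in vector cells alone. For the interaction of coculture and olaparib in vector cells, 1161 genes in place of 2186 and 2 members in place of 4 were called.

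Same-numbered libraries showed little shared deviation: their deviations correlated at -0.047 to 0.058 in cancer cells and -0.017 to 0.036 in macrophages. The labels do not say whether replicate numbers pair cultures, and these correlations cannot decide it. With the replicate block 3 calls were gained, Phgdh for coculture against F133V cells alone with olaparib (0.066, adjusted p = 0.046), Phgdh for the interaction of coculture and olaparib in F133V cells (-0.095, adjusted p = 0.035) and Shmt2 for that in vector cells (0.095, adjusted p = 0.031). No call was lost.

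Shmt1, one of the members with the fewest reads, lost the most calls with 1 library left out, followed by Mthfd1l, which had far more reads.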

Other observations

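Lists of the methionine cycle and of purine synthesis were not part of the comparisons above. In macrophages with DMSO, opposite F133V against opposite vector cells, 9 of 11 methionine cycle and transsulfuration genes were higher and 0 lower (median 0.17), where 25.5% of all genes were higher and 28.1% lower. They were led by Cth, which makes cysteine from cystathionine (1.80). With olaparib in macrophages opposite F133V cells, 7 of the 11 were lower and 1 higher beside 29.0% and 28.5% of all genes, with Cth at -1.66. In F133V against vector cocultures with DMSO, 6 of 12 purine synthesis genes were higher and 4 lower, a share called near that of all genes (79.5%; 37.4% higher and 42.0% lower). Atic, Ppat and Paics, enzymes of purine synthesis of which Atic uses folate-bound carbon, differed by 1.19, 0.71 and 0.69. With olaparib in F133V cocultures 8 of the 12 were lower and 3 higher beside 37.0% and 39.3% of all genes (76.3% called), with Atic at -1.34, Ppat at -1.13 and Paics at -0.79.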
